A study of Mus musculus with 12 samples.

Results

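The interferon regulatory factor (IRF) genes were followed in thioglycollate-elicited peritoneal exudate cells (PECs) of the mouse. The genes were taken by symbol from the table of expression values. They are *Irf1*, *Irf2*, *Irf3*, *Irf4*, *Irf5*, *Irf7*, *Irf8* and *Irf9*, together with *Irf2bp2* and *Irf2bpl*, the genes of 2 proteins of the IRF2-binding group. All 10 were among the 12850 genes listed, and all 10 passed the filter of 1 or more CPM (reads of a gene, scaled to a common library size) in 2 or more libraries, which left 11885 genes for testing. *Irf2bp1*, which was also listed, lay outside this choice of genes. PECs were collected 3.5 days after 2 ml of 4% thioglycollate medium had been injected into the peritoneum, from wild-type mice (WT, strain C57BL/6) and from *Zc3h12a* S513A/S513A knock-in mice (S513A). The knock-in allele, which changes a serine of the ribonuclease Regnase-1 to alanine, had been made with CRISPR/Cas9 in C57BL/6J eggs and is carried by every cell of these animals. The cells were kept without LPS (0 hr) or given LPS, a component of the bacterial outer membrane, at 100 ng/ml for 4 or 8 hr. Each of the 6 groups had 2 libraries, 12 in all. The age of the mice, the number of animals behind a library and the number of founder lines are not given in the sources used here, so p values measure the spread between these libraries, which may be technical. *Zc3h12a* itself had 362 to 3007 reads per library and was present in both genotypes, but read counts do not show the changed base.

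IRFs share a DNA-binding domain that reads GAAA repeats, and the double repeat that it recognizes is called the interferon-stimulated response element (ISRE). LPS is sensed by TLR4, whose adaptors lead to the activation of IRF3 and IRF5 as proteins that are already present. IRF3 then switches on the gene of interferon-beta, and secreted interferon acts through the complex ISGF3, which holds IRF9 and STAT2 and binds the ISRE. IRF1 and IRF7 are made in larger amounts once interferon or NF-kappaB signals arrive, and they carry the response further. IRF4 and IRF8 bind DNA poorly by themselves and work with partners such as PU.1, and both are known for their part in the development of myeloid and lymphoid cells. IRF2 binds the same sites as IRF1 and can hold them silent, and IRF2BP2 and IRF2BPL are corepressors without the IRF DNA-binding domain.

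The promoter windows of 4 genes are printed because they differ in their motifs and because the transcripts behaved differently under LPS, as described further on. Each window runs from 250 bases before to 50 bases after a RefSeq transcript start in GRCm38.p6, and all 10 genes matched by gene identifier, with 13 windows in total. Capitals mark matches, on either strand, to the ISRE core (GAAA, any 2 bases, then GAAA again), to the core of the STAT-binding interferon-gamma activated sequence (GAS), TTCNNNGAA, or to the kappaB motif bound by NF-kappaB. *Irf1* is shown in the first of its 2 windows, at chr11:53769764-53770063 (plus strand), and *Irf8* in the first of its 2, at chr8:120736108-120736407 (plus strand). *Irf2* is shown at chr8:46739495-46739794 (plus strand) and *Irf7* at chr7:141266375-141266674 (minus strand).
Irf1: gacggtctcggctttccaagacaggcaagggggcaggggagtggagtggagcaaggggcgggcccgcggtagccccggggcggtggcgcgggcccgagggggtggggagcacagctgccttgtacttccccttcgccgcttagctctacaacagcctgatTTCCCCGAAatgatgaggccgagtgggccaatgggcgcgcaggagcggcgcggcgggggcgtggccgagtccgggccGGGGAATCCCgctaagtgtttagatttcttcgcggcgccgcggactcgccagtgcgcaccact
Irf2: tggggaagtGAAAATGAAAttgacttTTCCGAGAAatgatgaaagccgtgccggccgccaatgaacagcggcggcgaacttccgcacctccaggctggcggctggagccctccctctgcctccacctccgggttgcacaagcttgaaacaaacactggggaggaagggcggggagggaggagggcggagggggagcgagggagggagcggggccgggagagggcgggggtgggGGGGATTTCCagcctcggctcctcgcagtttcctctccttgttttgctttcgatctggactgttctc
Irf8: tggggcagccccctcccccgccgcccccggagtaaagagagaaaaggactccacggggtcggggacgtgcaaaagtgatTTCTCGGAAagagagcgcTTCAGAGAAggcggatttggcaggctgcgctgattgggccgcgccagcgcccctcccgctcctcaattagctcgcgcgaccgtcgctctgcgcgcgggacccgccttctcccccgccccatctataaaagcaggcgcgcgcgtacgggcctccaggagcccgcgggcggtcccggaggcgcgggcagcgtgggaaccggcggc
Irf7: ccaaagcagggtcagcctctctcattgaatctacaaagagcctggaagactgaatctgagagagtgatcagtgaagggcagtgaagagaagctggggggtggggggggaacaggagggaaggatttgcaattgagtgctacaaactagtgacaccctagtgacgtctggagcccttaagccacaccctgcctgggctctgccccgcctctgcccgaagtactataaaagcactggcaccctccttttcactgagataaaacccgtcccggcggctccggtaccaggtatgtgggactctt
The *Irf1* window held a GAS core from -90 to -82 and a kappaB match from -13 to -4, counted from the transcript start. In the *Irf2* window, an ISRE core lay at -241 to -232, a GAS core at -224 to -216 and a kappaB match at -17 to -8. The *Irf8* window had 2 GAS cores, at -171 to -163 and at -153 to -145. No match overlapped another. The *Irf7* window and the 9 further windows of the family, among them the second windows of *Irf1* and *Irf8*, held no match, which says nothing of the factors themselves. Over all 32851 windows of mouse genes, 3.44% held the ISRE core, 8.3% the GAS core and 5.8% the kappaB motif. A match is a description of the sequence and not a mapped binding site.

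Between 9525979 and 12439960 reads per library fell on the listed genes (median 11137241). The values are log2 CPM, and a count of 3 reads, taken as the floor, corresponds to a log2 CPM from -2.04 to -1.30. Every IRF gene lay above that floor in every library, and *Irf4*, with 10 to 49 reads, came nearest to it. All 10 macrophage markers were listed, at a summed 16796 to 27859 CPM, while 6 of 7 B cell markers summed to 10.9 to 26.7 CPM, 2 of 7 T cell markers to 1.11 to 2.64 CPM and 0 of 4 NK cell markers were listed. The 3 listed of 7 neutrophil markers summed to 103 to 122 CPM at 0 hr, 139 to 183 CPM at 4 hr and 162 to 215 CPM at 8 hr. Most of that sum came from *Csf3r* (642 to 1488 reads per library) and *S100a8* (290 to 1037). *S100a8* did not rise in every library, with 616 and 608 reads in S513A at 0 hr and 368 in S513A 8 hr replicate 1. The sum of the 2 listed of 5 eosinophil markers fell with LPS. It was 15.3 to 18.5 CPM at 0 hr, 8.02 to 10.0 CPM at 4 hr and 3.62 to 4.58 CPM at 8 hr. That fall was in *Siglecf*, with 196 to 234 reads at 0 hr and 32 to 45 at 8 hr. *Ccr3* had 0 to 8 reads per library and did not fall. The part of these cells in the LPS results was not tested. Replicates differed most at 4 hr in WT and at 8 hr in S513A PECs, where the SD of the log2 difference between the 2 libraries was 0.40 and 0.34, against 0.16 to 0.29 in the other groups. A single direction held 39.2% of the variation within groups, with WT 4 hr replicate 2 and S513A 8 hr replicate 1 at its upper end and S513A 4 hr replicate 2 at its lower end. *Irf4*, *Irf2bpl*, *Irf2* and *Irf2bp2* were at percentiles 98.1, 89.0, 82.6 and 79.8 of the loadings on this direction.

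In resting PECs, *Irf5* was the most abundant of the family per transcript length, and both *Irf1* and *Irf7* lay above it under LPS. Levels between genes were compared as log2 CPM per kb of exon, over the 4 libraries of a time point. At 0 hr, *Irf5*, which drives inflammatory cytokine genes in macrophages, stood at a log2 level per kb of 6.11 ± 0.03 (SD, n = 4). *Irf8*, a factor of the myeloid lineage, followed at 4.97 ± 0.03 (SD, n = 4). Both were set apart from their neighbours in the order. The next 7 genes, *Irf2*, *Irf1*, *Irf2bp2*, *Irf2bpl*, *Irf7*, *Irf9* and *Irf3*, lay between 4.36 and 3.81 on that scale, and the libraries of each overlapped with those of the next. *Irf4*, known from lymphocytes and from alternatively activated macrophages, was lowest at -0.37 ± 0.10 (SD, n = 4), apart from all others.

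With LPS, the order changed. At 4 hr, *Irf1* and *Irf7* had log2 levels per kb of 7.01 ± 0.22 and 6.92 ± 0.21 (SD, n = 4) and overlapped with each other, above *Irf5* at 6.56 ± 0.12. *Irf9* and *Irf2* came next, at 5.34 ± 0.14 and 5.02 ± 0.21, and they overlapped as well. *Irf8* was then at 4.50, *Irf3* at 3.95, *Irf2bp2* at 3.27, *Irf2bpl* at 2.76 and *Irf4* at -0.73 on the same scale, and among these only *Irf2bp2* and *Irf2bpl* overlapped. At 8 hr, *Irf7* led with a log2 level per kb of 8.15 ± 0.25, followed by *Irf1* at 7.19 ± 0.16 and *Irf5* at 6.53 ± 0.09 (SD, n = 4 each), with no overlap between them. *Irf8*, *Irf9* and *Irf2* formed an overlapping group from 5.06 to 4.78, and *Irf2bp2*, *Irf3*, *Irf2bpl* and *Irf4* followed in that order, each apart from the next. Reads were mapped without regard to strand, and 9.48% of the exon length of *Irf5* is shared with *Tnpo3*, 3.97% of that of *Irf9* with *Rnf31*, 3% of that of *Irf1* with the unlisted *Gm17334* and 20.45% of that of *Irf2bp2* with the unlisted antisense gene *Gm26759*, so reads in these stretches cannot be assigned by the mapping alone.

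Expressed as a share of the summed CPM per kb of the 8 IRF genes, *Irf5* went from 37.1% ± 0.8 at 0 hr to 20.6% ± 0.7 at 4 hr and 14.7% ± 1.3 at 8 hr (SD, n = 4). *Irf7* went from 8.47% ± 0.84 to 26.6% ± 1.6 and then to 44.9% ± 3.4. The share of *Irf1* was 10.6% ± 1.2, 28.2% ± 1.9 and 23.1% ± 0.8 at the 3 times. For these genes the libraries of different time points did not overlap. *Irf8* supplied 16.9% of the sum at rest, and 4.95% and 5.30% with LPS. The sum itself was 186 ± 4, 459 ± 46 and 635 ± 68 CPM per kb at 0, 4 and 8 hr (SD, n = 4), so a falling share of *Irf5* went together with a rising level.

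**Figure D1:**
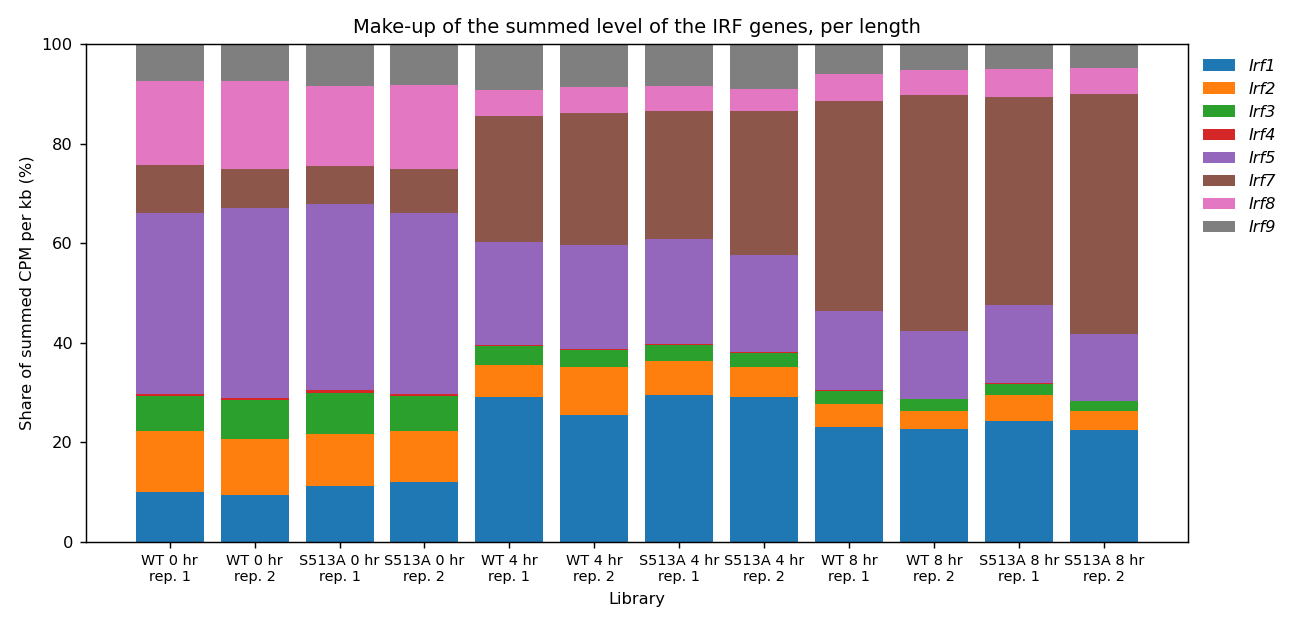
Make-up of the summed level of the 8 IRF genes in each of the 12 libraries, as the share of the summed CPM per kb in percent (bars, from 0 to 100), ordered by hours of LPS. *Irf5* takes the largest share in the 4 libraries at 0 hr (36.4 to 38.1%) and *Irf7* in the 4 libraries at 8 hr (41.9 to 48.4%).

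LPS for 4 hr changed most of the family, and in both directions. In the comparison of 4 hr with 0 hr over both genotypes, 5 of the 10 transcripts rose (*Irf1*, *Irf2*, *Irf5*, *Irf7* and *Irf9*) and 3 fell (*Irf8*, *Irf2bp2* and *Irf2bpl*) at a limma Benjamini-Hochberg adjusted p below 0.05. Over all genes tested, 55.8% were called in this comparison, 29.1% higher and 26.7% lower, so a count of 8 in 10 has to be read against a response that reached over most of the transcriptome. For the same 5 and 3 genes, all libraries with 4 hr of LPS lay above or below all those without it, beside 25.7% of all genes above and 23.4% below. The median log2 fold change of the 10 was 0.29, and that of all genes 0.017. *Irf1* and *Irf7* ranked 333rd and 290th of all genes from the highest log2 fold change down. In bulk RNA of PECs, fewer cells of a type and less RNA per cell cannot be told apart.

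**Figure D2:**
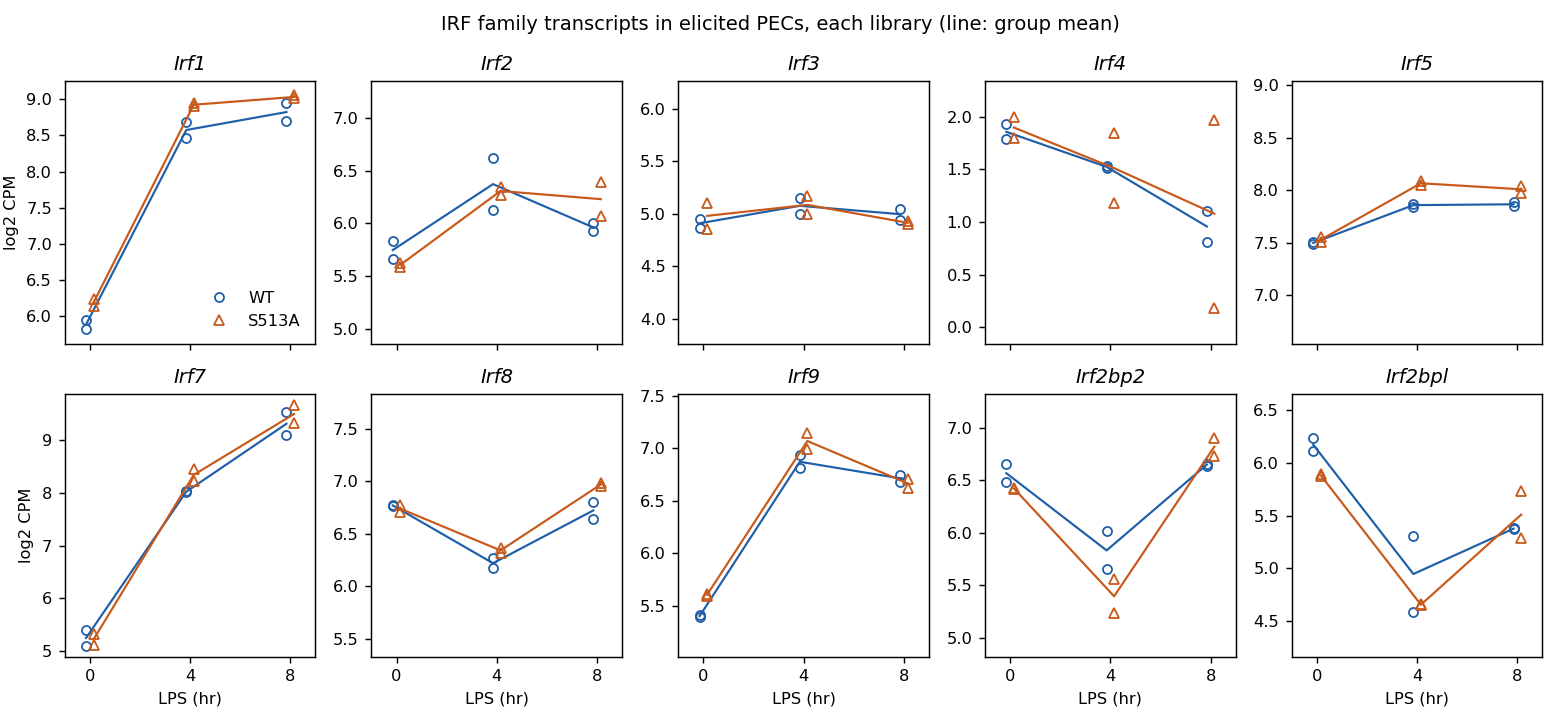
Log2 CPM (vertical axes, own range in each panel) of the 10 genes against hours of LPS, with circles for the WT and triangles for the S513A libraries, 2 per group, and lines through the group means. *Irf1*, *Irf7* and *Irf9* rise by 4 hr in both genotypes, while *Irf8*, *Irf2bp2* and *Irf2bpl* are lowest at 4 hr.

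*Irf1*, an activator that is itself an early target of interferon and NF-kappaB signals, and whose printed promoter window held a GAS core and a kappaB match, was among the strongest risers of the family. Its log2 CPM in the WT libraries was 5.95 and 5.82 without LPS, 8.69 and 8.46 after 4 hr, and 8.70 and 8.94 after 8 hr. S513A PECs gave a log2 CPM of 6.14 and 6.23, then 8.91 and 8.94, then 9.01 and 9.05. Every library with LPS lay above every library without it, and those of 4 and 8 hr overlapped over the genotypes. The log2 fold change over both genotypes was 2.71 at 4 hr (SE 0.08, 95% confidence interval 2.53 to 2.90, limma adjusted p = 8.84e-10), a 6.56-fold rise, and 2.89 at 8 hr (SE 0.08, limma adjusted p = 9.64e-10). From 4 to 8 hr, *Irf1* differed by 0.18 on the log2 scale (95% confidence interval -0.01 to 0.36, limma adjusted p = 0.149). That step was called with quantile normalization (0.28, limma adjusted p = 0.0252). It was also called with the score of the main direction within groups as a term (0.18, limma adjusted p = 0.0302). The score comes from the residuals of these same libraries, which makes its p values too small. In GRCm38 *Irf1* spans 53770014 to 53778374 of chromosome 11.

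*Irf2*, which competes with IRF1 for the same sites, rose less. In WT PECs its log2 CPM was 5.83 and 5.66 without LPS, 6.12 and 6.62 after 4 hr, and 6.00 and 5.92 after 8 hr. The S513A libraries gave 5.63 and 5.59, then 6.35 and 6.27, then 6.39 and 6.07. The libraries with LPS were all above those without it, by a margin that was small against the gap between the 2 WT libraries at 4 hr. It changed by 0.67 on the log2 scale at 4 hr (SE 0.12, limma adjusted p = 0.000573) and 0.42 at 8 hr (SE 0.12, limma adjusted p = 0.0121), and the 8 hr call was lost without WT 0 hr replicate 2 (0.38, limma adjusted p = 0.0504) and with quantile normalization (0.30, limma adjusted p = 0.0529). The step from 4 to 8 hr was -0.24 (limma adjusted p = 0.153), and it was called without WT 4 hr replicate 1 (-0.37, limma adjusted p = 0.0163). Without WT 4 hr replicate 2, the log2 fold change at 4 hr was 0.54 over both genotypes, still past the threshold, and 0.38 in WT alone (limma adjusted p = 0.0638), where it had been 0.63 (limma adjusted p = 0.0106). The WT call was also lost without WT 0 hr replicate 2 and with quantile normalization (limma adjusted p = 0.0794 and 0.0568). The difference between *Irf1* and *Irf2* in log2 level per kb was -0.06 ± 0.26 without LPS, 1.99 ± 0.39 at 4 hr and 2.41 ± 0.20 at 8 hr (SD, n = 4), a pair set side by side after the values were seen. *Irf2* lies on chromosome 8 from 46739732 to 46847458, and its printed window was the only member window with the ISRE core.

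*Irf3* and *Irf7* encode the pair of factors that bind the promoters of type I interferon genes, the former usually present at rest and the latter made on demand. *Irf3* was not called in any comparison of LPS times, with a log2 CPM of 4.87 and 4.95 without LPS, 5.15 and 5.0 after 4 hr and 4.95 and 5.05 after 8 hr in WT libraries, and of 5.10 and 4.86, 5.17 and 5.0, and 4.93 and 4.90 in S513A libraries. The libraries of all time points overlapped. The log2 fold change of *Irf3* was 0.14 at 4 hr (95% confidence interval -0.06 to 0.33, limma adjusted p = 0.214) and 0.01 at 8 hr (-0.18 to 0.20, limma adjusted p = 0.934), and each library had 275 to 418 of its reads. *Irf3* lies on chromosome 7 from 44997648 to 45002848.

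*Irf7* had the largest rise of the 10 genes, both at 4 and at 8 hr. Its log2 CPM in WT PECs was 5.40 and 5.09 without LPS, 8.01 and 8.04 after 4 hr, and 9.10 and 9.53 after 8 hr. The S513A values were 5.12 and 5.32, then 8.23 and 8.45, then 9.32 and 9.68. The 3 time points did not overlap, and the level went up at each step in both genotypes. *Irf7* rose by 2.95 on the log2 scale at 4 hr (SE 0.12, limma adjusted p = 9.07e-09), a 7.73-fold rise, and 4.17 at 8 hr (SE 0.12, limma adjusted p = 1.18e-09), an 18.1-fold rise. From 4 to 8 hr it gained a further 1.22 (SE 0.12, limma adjusted p = 7.87e-05), the 145th highest log2 fold change of all 11885 genes in that comparison. *Irf7* and *Irf3* had nearly equal log2 levels per kb at rest, with a difference of 0.16 ± 0.25, and they differed by 2.97 ± 0.25 at 4 hr and 4.32 ± 0.26 at 8 hr (SD, n = 4), another pair set side by side after the values were seen. *Irf7* lies on the minus strand of chromosome 7 from 141262706 to 141266481. Plasmacytoid dendritic cells are known for a high level of *Irf7*, and 3 of 6 of their markers were listed, without *Siglech*. Their summed level was 27.4 to 30.3 CPM at 0 hr, 50.6 to 64.5 CPM at 4 hr and 27.9 to 31.9 CPM at 8 hr, most of it from *Tcf4* with 247 to 654 reads per library. *Ccr9* had 1 to 4 reads at 0 hr, 22 to 36 at 4 hr and 23 to 32 at 8 hr. The part of these cells in the level of *Irf7* was not tested.

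*Irf9*, the DNA-binding subunit of ISGF3, rose early and came down slightly. The WT libraries had a log2 CPM of 5.42 and 5.39 without LPS, 6.94 and 6.81 after 4 hr, and 6.68 and 6.75 after 8 hr. The S513A libraries had 5.62 and 5.6, then 7.00 and 7.14, then 6.63 and 6.71. All libraries with LPS lay above those without, and all 8 hr libraries lay below all 4 hr libraries. *Irf9* rose by 1.47 on the log2 scale at 4 hr (SE 0.07, limma adjusted p = 2.54e-08) and 1.19 at 8 hr (SE 0.07, limma adjusted p = 1.72e-07). The step from 4 to 8 hr was a fall by 0.28 on the log2 scale (SE 0.07, limma adjusted p = 0.0141). That call was lost without WT 8 hr replicate 1, S513A 4 hr replicate 2 or S513A 8 hr replicate 1 (limma adjusted p = 0.0624, 0.0563 and 0.0513) and with quantile normalization (0.0735), with log2 fold changes from -0.32 to -0.24 over the 12 fits that left out a library. *Irf9* lies on chromosome 14 from 55603571 to 55610030.

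*Irf5* rose modestly and held its level. Its log2 CPM in WT was 7.49 and 7.51 without LPS, 7.87 and 7.84 after 4 hr and 7.85 and 7.89 after 8 hr. The S513A libraries showed 7.55 and 7.50, then 8.09 and 8.05, then 8.04 and 7.98. The libraries without LPS were below all of those with it, and replicates of *Irf5* lay within 0.1 of each other in every group. Its log2 fold change was 0.45 at 4 hr (SE 0.06, limma adjusted p = 0.000116) and 0.42 at 8 hr (SE 0.06, limma adjusted p = 0.000233). These calls depended on the scaling, because quantile normalization gave 0.08 and 0.17 at 4 and 8 hr (limma adjusted p = 0.371 and 0.0873), and in WT alone the sign at 4 hr turned (-0.02, limma adjusted p = 0.892). The gene lies on chromosome 6 from 29526625 to 29541871.

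*Irf8* dipped at 4 hr and was back at 8 hr. In WT libraries its log2 CPM was 6.77 and 6.77 without LPS, 6.27 and 6.17 after 4 hr, and 6.64 and 6.80 after 8 hr. With the knock-in it was 6.71 and 6.77, then 6.36 and 6.32, then 6.95 and 6.99. The 4 hr libraries all lay below the others, while those of 0 and 8 hr overlapped. Its fall at 4 hr had a log2 fold change of -0.47 (SE 0.07, limma adjusted p = 0.000151), or -0.71 under quantile normalization, and rose again by 0.56 from 4 to 8 hr (SE 0.07, limma adjusted p = 0.000224). At 8 hr it differed from 0 hr by 0.09 (95% confidence interval -0.06 to 0.24, limma adjusted p = 0.308). *Irf8* lies on chromosome 8 from 120736358 to 120756694, and its printed window held 2 GAS cores. Dendritic cells also express *Irf8*, and 5 of 6 of their markers were listed, without *Xcr1*. Their summed level was 5.40 to 7.91 CPM at 0 hr, 5.98 to 8.59 CPM at 4 hr and 9.36 to 12.1 CPM at 8 hr. The markers of this list did not move together, with *Ccr7* at 10 to 23 reads at 0 hr and 57 to 78 at 8 hr, and *Clec9a* at 34 to 73 and 7 to 17 reads. Their part in the level of *Irf8* was not tested.

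*Irf4* was close to the limit of what these libraries resolve. The WT libraries held 49 and 49 reads of it without LPS, 32 and 31 after 4 hr and 18 and 22 after 8 hr, or a log2 CPM of 1.79 and 1.93, 1.52 and 1.53, and 0.81 and 1.10. In S513A libraries it had 45 and 41, 36 and 19, and 45 and 10 reads, or a log2 CPM of 2.0 and 1.8, 1.84 and 1.18, and 1.97 and 0.18. The WT libraries came down without overlap, whereas S513A 8 hr replicate 1 had as many reads as a library at rest and its partner had the fewest of all 12. At 8 hr the log2 fold change was -0.86 (SE 0.33, 95% confidence interval -1.59 to -0.13), and it missed the threshold (limma adjusted p = 0.0538). Without S513A 8 hr replicate 1 it was -1.31 and was called (limma adjusted p = 0.000662). With all libraries the 8 hr fall passed narrowly under log2(CPM + 1), median-ratio scaling and voom weights (limma adjusted p = 0.0485, 0.0492 and 0.0464). It also passed with a replicate block (limma adjusted p = 0.0191). The same held with the score of the main direction within groups as a term (limma adjusted p = 0.00735), with the limit given for *Irf1*. The step from 4 to 8 hr was also called without that S513A library (-0.95, limma adjusted p = 0.012, against -0.50 and 0.307 with all libraries). At 4 hr the log2 fold change was -0.36 with an interval from -1.09 to 0.37 (limma adjusted p = 0.382). *Irf4* lies on chromosome 13 from 30749226 to 30766976. B cells also carry *Irf4*, and 6 of 7 of their markers, without *Pax5*, summed to 10.9 to 16.9 CPM without LPS, 19.8 to 23.9 CPM at 4 hr and 15 to 26.7 CPM at 8 hr. Their part in the *Irf4* values was not tested.

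*Irf2bp2* and *Irf2bpl*, the corepressor genes, both fell at 4 hr. *Irf2bp2* had a log2 CPM of 6.65 and 6.48 without LPS, 5.65 and 6.01 after 4 hr and 6.66 and 6.64 after 8 hr in WT, and of 6.42 and 6.42, 5.56 and 5.24, and 6.91 and 6.74 in S513A PECs. All 4 hr libraries lay below all others. *Irf2bp2* had a log2 fold change of -0.88 at 4 hr (SE 0.10, limma adjusted p = 3.12e-05), and from 4 to 8 hr it rose by 1.12 (SE 0.10, limma adjusted p = 4.13e-05), the 209th highest of all genes in that comparison. At 8 hr its difference from 0 hr was 0.24 (limma adjusted p = 0.0821), which passed without either WT 4 hr library (limma adjusted p = 0.0376 and 0.0377). With the score of the main direction within groups as a term, this 8 hr difference was also called (limma adjusted p = 0.0022). The limit given for *Irf1* applies here too. *Irf2bpl* had a log2 CPM of 6.23 and 6.12 without LPS, 4.58 and 5.31 after 4 hr and 5.38 and 5.37 after 8 hr in WT, and of 5.87 and 5.90, 4.66 and 4.65, and 5.73 and 5.28 in S513A PECs. It remained below its resting libraries at both times, with a wide gap between the WT libraries at 4 hr and between the S513A libraries at 8 hr. *Irf2bpl* had log2 fold changes of -1.23 at 4 hr (SE 0.15, limma adjusted p = 3.85e-05), -0.59 at 8 hr (SE 0.15, limma adjusted p = 0.00766) and 0.64 from 4 to 8 hr (SE 0.15, limma adjusted p = 0.0094). With each library left out in turn, these values ran from -1.41 to -1.05, from -0.70 to -0.47 and from 0.46 to 0.83, and each stayed past the threshold in all 12 fits. *Irf2bp2* lies on the minus strand of chromosome 8 from 126588296 to 126593986, and *Irf2bpl* on the minus strand of chromosome 12 from 86880701 to 86884798.

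**Figure D3:**
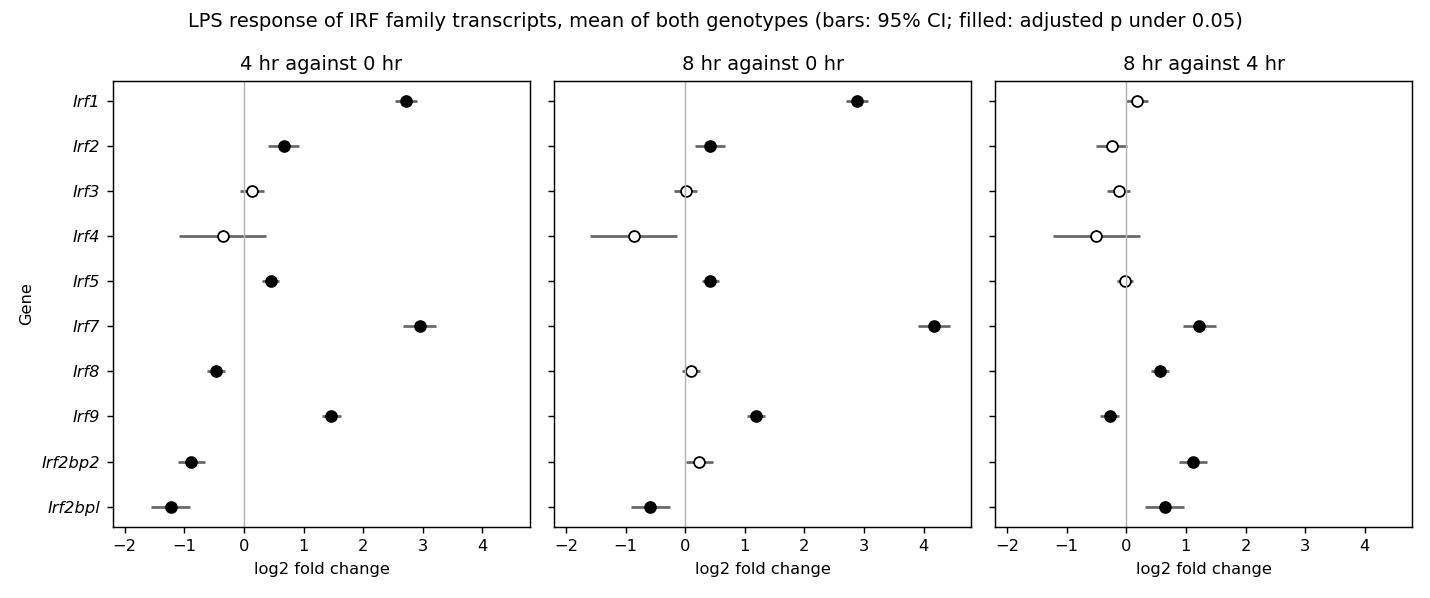
Log2 fold change (horizontal axes) of each gene in the 3 comparisons of LPS times, as the mean of both genotypes with its 95% confidence interval from limma, and filled points where the adjusted p is under 0.05. The panel of 4 hr against 0 hr has 8 filled points, that of 8 hr against 0 hr 6 and that of 8 hr against 4 hr 5.

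At 8 hr, 6 of the 10 transcripts differed from 0 hr over both genotypes, with *Irf1*, *Irf2*, *Irf5*, *Irf7* and *Irf9* higher and *Irf2bpl* lower, beside 46.1% of all genes called (24.5% higher and 21.6% lower). The same 5 had all 8 hr libraries above all 0 hr libraries and *Irf2bpl* had them below, as 23% and 20.7% of all genes did. From 4 to 8 hr, 4 of the 10 rose (*Irf7*, *Irf8*, *Irf2bp2* and *Irf2bpl*) and *Irf9* fell, beside 25.6% of all genes (12.8% higher and 12.8% lower). Libraries did not overlap for *Irf7*, *Irf8* and *Irf2bp2*, which were higher, and *Irf9*, which was lower, beside 11.9% and 11.7% of all genes, while those of *Irf2bpl* overlapped. The 3 comparisons share libraries, so their values are not independent of each other. The 3 genes that had fallen at 4 hr were among the 4 that rose from 4 to 8 hr, and that turn is partly built into 2 differences that both use the 4 hr libraries.

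Within WT PECs, 8 of the 10 genes were called at 4 hr beside 41.3% of all genes, and within S513A PECs the same 8, in the same directions, beside 43.2%. Some of these calls depended on the processing, as given above for *Irf2* and *Irf5* in WT. That of *Irf5* in S513A PECs was lost with quantile normalization (0.19, limma adjusted p = 0.18). Those of *Irf5* in WT and *Irf8* in S513A were lost without WT 0 hr replicate 1 (0.35) and S513A 0 hr replicate 2 (-0.37), in that order. At 8 hr, 5 were called in WT (34.3% of all genes) and 5 in S513A (39.9%), of which *Irf1*, *Irf5*, *Irf7* and *Irf9* were shared. The WT call of *Irf5* was lost without WT 0 hr replicate 1, without WT 8 hr replicate 2 and with quantile normalization (limma adjusted p = 0.0565, 0.0677 and 0.751). With the score of the main direction within groups as a term, 9 of the 10 were called at 8 hr in S513A PECs, beside 48.7% of all genes. *Irf2bpl* was called at 8 hr in WT (-0.80, limma adjusted p = 0.0134) and not in S513A PECs (-0.38, limma adjusted p = 0.18), and *Irf2* in S513A (0.63, limma adjusted p = 0.0117) and not in WT PECs (0.22, limma adjusted p = 0.336). The genotype by LPS interaction was 0.42 for *Irf2bpl* (limma adjusted p = 0.40) and 0.41 for *Irf2* (limma adjusted p = 0.311), so neither response was shown to differ between genotypes. Without either WT 4 hr library, *Irf2bpl* was called in S513A PECs as well (limma adjusted p = 0.0445 and 0.045), and its value there ran from -0.60 without S513A 8 hr replicate 1 to -0.15 without S513A 8 hr replicate 2. The WT call of *Irf2bpl* was lost without WT 0 hr replicate 1, WT 8 hr replicate 1 or WT 8 hr replicate 2 (limma adjusted p = 0.0822, 0.0621 and 0.0728). That of *Irf2* in S513A PECs was lost without S513A 0 hr replicate 1, S513A 0 hr replicate 2 or S513A 8 hr replicate 1 (limma adjusted p = 0.055, 0.0659 and 0.0983). From 4 to 8 hr, *Irf7*, *Irf8* and *Irf2bp2* rose in both genotypes, 3 called in WT (14.2% of all genes) and 5 in S513A (18.3%). The WT call of *Irf8* was lost without WT 8 hr replicate 2 (0.42, limma adjusted p = 0.0842). *Irf9* (-0.40, limma adjusted p = 0.0202) and *Irf2bpl* (0.86, limma adjusted p = 0.0199) were called in S513A alone, and whether that step differed between genotypes was not tested. In WT, *Irf2bpl* was called without WT 4 hr replicate 2 (0.80, limma adjusted p = 0.0172) and stood at 0.07 without WT 4 hr replicate 1. Both of these calls were lost without S513A 4 hr replicate 2 (limma adjusted p = 0.153 and 0.102) and without S513A 8 hr replicate 1 (limma adjusted p = 0.135 and 0.148). The call of *Irf2bpl* was also lost without S513A 4 hr replicate 1 (limma adjusted p = 0.0564), and that of *Irf9* with quantile normalization (limma adjusted p = 0.0555).

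Over the 12 libraries, other genes followed some of the IRFs closely. Likeness was measured as the root mean square difference between profiles centred on their own mean, for the members whose group means spanned at least 1 log2 unit, and all points share the same libraries. The nearest profiles to *Irf1* were those of *Pilra* (0.169 log2 units), *Lmo4* (0.178) and *Parp12* (0.178). *Irf7* was nearest to *Zbp1* (0.215), *Gbp9* (0.272) and *Phf11a* (0.352). Of these, *Zbp1* encodes a sensor of Z-form nucleic acid, *Gbp9* a guanylate-binding protein and *Parp12* an ADP-ribosyltransferase, all known interferon-stimulated genes. The log2 fold changes of *Zbp1* were 3.37 at 4 hr and 4.43 at 8 hr, beside the 2.95 and 4.17 of *Irf7*. For *Irf9*, the nearest were *Mtpn* (0.0664), *Tpm4* (0.0689) and *Riox2* (0.0796). *Irf2bp2* was nearest to *Trim65* (0.117), *Tbc1d5* (0.139) and *Por* (0.160), and *Irf2bpl* to *Plekhm1* (0.0963), *Rab3gap2* (0.121) and *Vars2* (0.124). These 6 neighbours had log2 fold changes from -1.28 to -0.78 at 4 hr, a range that follows from how they were found.

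Around the IRFs, the genes that activate them and those that they act on were counted in the same fit. Of 15 genes that lead from TLR4 and other sensors to IRF activation, 9 were higher and 4 lower at 4 hr. The shares among all tested genes were 29.1% and 26.7%, in that order. The 15 had a median of 0.39 on the log2 scale, against 0.017 over all genes. *Myd88*, the main TLR adaptor, rose by 1.67 (SE 0.09, limma adjusted p = 6.21e-08), and *Ikbke*, which encodes a kinase of IRF3 and IRF7, by 1.57 (SE 0.11, limma adjusted p = 4.28e-07). Both were still higher at 8 hr, by 1.26 and 1.37, as were 7 genes of the list in all, with 2 lower. Over all genes, 24.5% were higher and 21.6% lower at 8 hr. Downstream of the interferon receptors, *Jak2*, which encodes a Janus kinase, rose at 4 hr (3.17 on the log2 scale, SE 0.08, limma adjusted p = 2.09e-10), as did *Stat2*, a partner of IRF9 in ISGF3 (2.78, SE 0.11, limma adjusted p = 4.65e-09). At 8 hr the log2 fold change of *Stat2* was 2.52, beside 1.19 for *Irf9*.

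Among 12 genes of DNA-binding partners of IRF4 and IRF8, 8 were higher and 3 lower at 4 hr, beside 29.1% and 26.7% of all genes. At 8 hr, 7 were higher and 2 lower, beside 24.5% and 21.6%. The following changes are those at 4 hr. *Batf2*, a partner of IRF1 and IRF8 in activated macrophages, rose by 3.26 on the log2 scale (SE 0.16, limma adjusted p = 3.5e-08) and *Ets2* by 3.15 (SE 0.11, limma adjusted p = 2.05e-09). At 8 hr their log2 fold changes from 0 hr were 3.58 and 2.09.

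Of 22 genes known to carry ISRE or IRF sites, 20 were higher and 1 lower at 4 hr, beside 29.1% and 26.7% of all genes. At 8 hr, 21 were higher and 0 lower, beside 24.5% and 21.6%. *Cxcl10*, the chemokine of the interferon response, had 0 to 7 reads per library at 0 hr, and *Il12b*, a cytokine subunit gene, 3 to 6 reads, so no fold is given for either. With LPS, the mean log2 CPM of *Cxcl10* was 8.89 at 4 hr and 5.70 at 8 hr, and that of *Il12b* 7.55 and 5.76. From 4 to 8 hr, 6 genes of this list were higher and 10 lower, beside 12.8% and 12.8% of all genes. *Irf7* gained 1.22 over the same interval. Of 12 genes of feedback on these signals, 10 were higher and 0 lower at 4 hr, led by *Socs1* (4.69, SE 0.15, limma adjusted p = 1.51e-09) and *Usp18* (4.49, SE 0.11, limma adjusted p = 1.69e-10). At 8 hr, 7 of the 12 were lower than at 4 hr, beside 12.8% of all genes. *Usp18* stands in both of these lists.

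The lists tied to IRF4 and to the corepressors were mixed. Of 9 genes linked to IRF4 in alternatively activated macrophages, 3 were higher and 4 lower at 4 hr, with *Cd274*, which encodes the checkpoint ligand PD-L1, up by 1.94 (SE 0.07, limma adjusted p = 3.46e-09) and the demethylase gene *Kdm6b* by 1.67 (SE 0.15, limma adjusted p = 3.4e-06). Of 8 genes linked to the IRF2BP corepressors, 2 were higher and 4 lower at 4 hr, with a median of -0.29, against 0.017 over all genes. *Nfatc2*, whose protein IRF2BP2 is known to repress, fell by 2.74 (SE 0.20, limma adjusted p = 6.58e-07), and *Vgll4* fell by 2.04 (SE 0.16, limma adjusted p = 1.16e-06). At 8 hr both remained below rest, with log2 fold changes of -2.21 and -1.15. The members of these lists were chosen with results of these data known, and beside them 55.8% of all genes were called at 4 hr, 29.1% higher and 26.7% lower.

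The comparison of S513A with WT PECs asks whether the Regnase-1 mutation changes transcript levels before and after LPS. None of the 10 genes passed the adjusted threshold at 0, 4 or 8 hr, where 0.0337%, 0.0168% and 0.0337% of all genes did. In limma, an unadjusted p under 0.05 was found for 1, 3 and 1 of the 10, beside 7.98%, 7.01% and 12.5% of all genes. The smallest adjusted p of the family was 0.586, 0.622 and 0.395 in the same order. Averaged over the 3 times, 0 of the 10 passed (0.0673% of all genes), and 2 had an unadjusted limma p under 0.05, beside 6.71%. With the score of the main direction within groups as a term, 1 of the 10 passed in that average, beside 0.749% of all genes.

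The gene in question was *Irf1*. Its S513A libraries lay above both WT libraries at each of the 3 times, a pattern shared by 1.03% of all genes, while 0.597% had it in the lower direction. Its log2 fold changes were 0.30, 0.35 and 0.21 in the order of time, each with a SE of 0.12, and the 8 hr value was 0.09 without WT 8 hr replicate 1. In the average over times it was 0.29 (95% confidence interval 0.14 to 0.44, limma adjusted p = 0.356), which did not pass over all genes tested. With the score of the main direction within groups as a term it was 0.27 (limma adjusted p = 0.028). The direction was taken from the residuals of these same libraries, which makes the p values too small. The score was centred on each time point over both genotypes, so it also carries differences between them. At 0 hr it was 0.74 and 0.47 SD units in the WT libraries and -0.42 and -0.80 in the S513A libraries. The response of *Irf1* to LPS was close in both genotypes, with 4 hr log2 fold changes of 2.69 (WT) and 2.74 (S513A), an interaction of 0.05 and a 95% confidence interval from -0.32 to 0.42.

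No other gene of the family had this at all 3 times. *Irf5* had an averaged log2 fold change of 0.13 (limma adjusted p = 0.704), with all S513A libraries above WT at 4 and 8 hr but not at 0 hr. For *Irf9* they were above WT at 0 and 4 hr (0.20 at both, limma adjusted p = 0.586 and 0.622), and the libraries overlapped at 8 hr (-0.05). *Irf2* differed by -0.14, -0.07 and 0.27 in the order of time, and *Irf2bpl* by -0.29, -0.29 and 0.13, with limma adjusted p from 0.45 to 0.872 over these 6 values. Without WT 4 hr replicate 1, the 4 hr differences of *Irf2* and *Irf2bpl* were -0.32 and -0.66, and without WT 4 hr replicate 2 they were 0.19 and 0.07. *Irf8* was 0.25 higher in S513A PECs at 8 hr (limma adjusted p = 0.395), where the summed dendritic cell markers were lower than in WT, at 9.36 to 9.58 against 10.4 to 12.1 CPM. *Irf2bp2* was below WT at 4 hr (-0.44, limma adjusted p = 0.622, and from -0.62 to -0.26 without WT 4 hr replicate 1 or 2) and above WT at 8 hr (0.17), without overlap of the libraries at any of the 3 times but in opposite directions. At a single time, S513A libraries without overlap were found in 30.4% of all genes in the higher and 27.1% in the lower direction before LPS, in 14.3% and 13.9% after 4 hr, and in 27.9% and 25.8% after 8 hr. For *Irf3*, the averaged difference was -0.00064 with an interval from -0.16 to 0.16, and for *Irf7* 0.16 with an interval from -0.07 to 0.38 (limma adjusted p = 0.998 and 0.85). For *Irf4* the interval reached from -0.55 to 0.65, and its 8 hr difference was -0.77 without S513A 8 hr replicate 1 and 1.02 without S513A 8 hr replicate 2. The summed level of the 5 markers of resident peritoneal macrophages, all listed, was lower in S513A PECs at each time, at 21.2 to 24.7 against 28.7 to 36.0 CPM at 0 hr, 22.9 to 29.5 against 38.9 to 41.6 CPM at 4 hr and 27.3 to 32.1 against 45.7 to 54.7 CPM at 8 hr. *Timd4*, with 75 to 405 reads per library, made up the largest part of the sum. At 0 hr the levels of *Timd4*, *Icam2* and *Gata6* overlapped between the genotypes. Those of *F5* (107 and 128 reads in WT, 56 and 46 in S513A) and *Selp* (34 and 45 against 9 and 19) did not. The part of resident macrophages in the differences of the IRF genes was not tested.

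**Figure D4:**
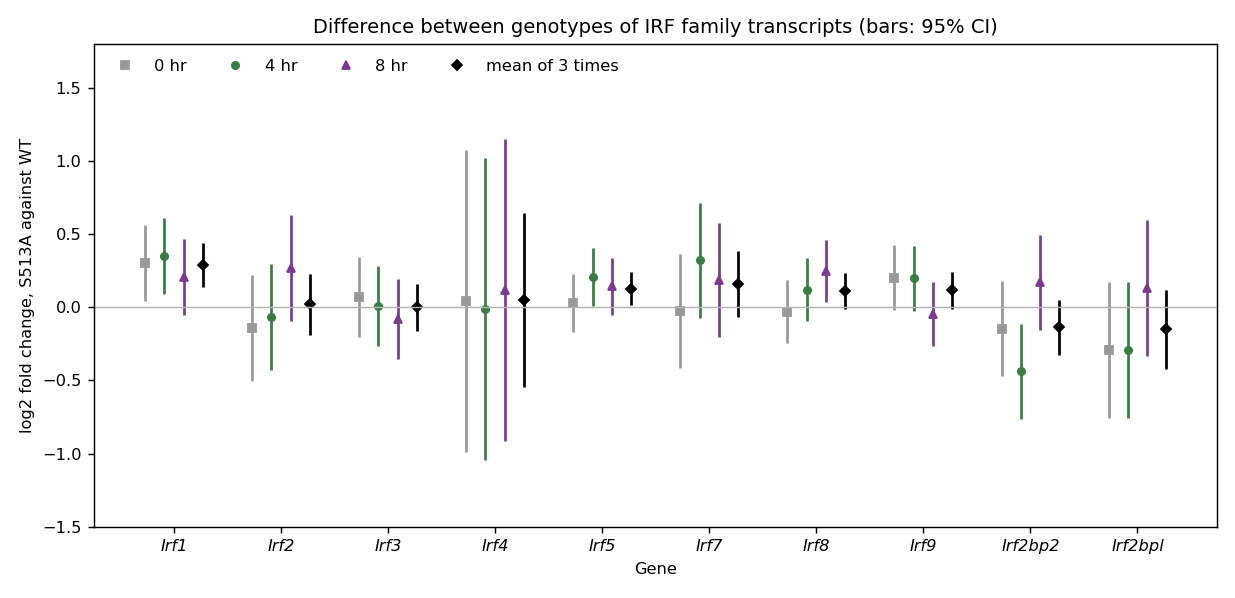
Log2 fold change of S513A against WT PECs (vertical axis) for each gene at 0, 4 and 8 hr and as the mean of the 3 times, with 95% confidence intervals from limma. The interval of the averaged *Irf1* difference runs from 0.14 to 0.44, and that of *Irf4* is the widest, from -0.55 to 0.65.

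In the interaction of genotype with LPS, 0 of the 10 genes passed at 4 hr and 0 at 8 hr, where 0% of all genes did in either test. Without S513A 8 hr replicate 2, 26 genes were called higher and 625 lower in the 8 hr interaction, with 0 of the 10 among them. None of the 10 had an unadjusted limma p under 0.05, beside 1.21% of all genes at 4 hr and 20.2% at 8 hr. The smallest adjusted p of the family was 1.00 at 4 hr and 0.269 at 8 hr, the latter for *Irf8* (interaction 0.28, 95% confidence interval -0.02 to 0.58). Of the 22 genes with ISRE or IRF sites, 1 was called higher in S513A PECs in the average over times, beside 0.0673% of all genes. The other lists described here had 0 called. The median log2 fold change of the 22 was 0.33, against 0.0066 over all genes. In the other lists it ran from -0.10 to 0.18, and no list was tested as a set.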

How the data were processed

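PolyA RNA of 12 libraries of PECs was sequenced on a NextSeq, and the authors mapped the reads on mm10 with HISAT2 as unstranded pairs and counted them with featureCounts 1.6.3. The program behind the final values, the gene annotation and the gene filter are not given in the sources used here. The authors deposited log2 CPM values, each the log2 of the reads plus 0.5, scaled to an adjusted library size. The step between low values gave that size and, within 0.05 read, a whole count for 100% of values. Depth was 9525979 to 12439960 reads per library. Floors cover counting error only.

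Groups followed the labels of genotype and LPS time. The fit used limma 3.58.1 (R 4.3.3) on these values, with a mean for each of 6 groups, 6 residual degrees of freedom and a prior that follows the mean level. Tests were two-sided, with Benjamini-Hochberg adjusted p values over the 11885 genes that reached 1 CPM in 2 or more libraries and a threshold of 0.05. The script was tested on simulated data. All 10 genes were followed in each comparison, and those not called in an interaction are given by count. From each pathway list, the 2 called genes with the largest change at 4 hr were named, and for members spanning at least 1 log2 unit the 3 most similar genes. Other choices, where made after values were seen, are stated. Levels between genes used exon lengths of GENCODE vM21, and promoters were from RefSeq (GRCm38.p6). Alternatives were no filter, a filter on a mean of 5 CPM, log2(CPM + 1), median-ratio scaling, quantile normalization, voom weights, a prior without a trend, a replicate block, a score for the main direction within groups, and leaving out each library. Some results of the lists are not reported here. The genes and lists were chosen with earlier results of these data known. Python 3.11.15, pandas 2.3.3 and matplotlib 3.10.9 served for tables and plots.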

Additional observations from a re-analysis of the deposited data

How the results depend on the processing

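Over the alternatives, 1113 values of called genes were recomputed, of which 1082 kept their direction and call, 30 lost the call and 1 turned direction, namely *Irf5* at 4 hr in WT PECs under quantile normalization (-0.022). Quantile normalization accounts for 9 of these 31 values, that one included, and the others followed the removal of a library, with fewer samples in the fit. Of 2022 values of genes not called, 36 became called and 1986 did not. The cause of these changes was not tested. With the score of the main direction within groups as a term, 9 of the 10 genes were called at 8 hr against 0 hr in S513A PECs (5 without it, with 2963 genes higher and 2821 lower among all 11885) and 1 in the average between genotypes (0 without it, with 45 higher and 44 lower among all). With a library left out, the count at 8 hr against 0 hr in WT PECs ran from 3 (without WT 0 hr replicate 1 or WT 8 hr replicate 2) to 6, and at 8 hr against 4 hr in S513A PECs from 3 (without S513A 4 hr replicate 2) to 5. The other counts of LPS comparisons ran from 7 to 8 at 4 hr, from 4 to 7 at 8 hr and from 2 to 6 from 4 to 8 hr, and those between genotypes and of the interactions were 0 in every such fit. A group left with 1 library was assumed to vary like the others.

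Libraries of one replicate number are not said to share an animal or a day, and the correlation between groups of the difference of replicate 1 from replicate 2 ran from -0.749 to 0.76, so the numbers were not taken as pairs. With a replicate block, the counts of called genes were 8, 8 and 8 at 4 hr against 0 hr (both genotypes, WT and S513A), 7, 5 and 5 at 8 hr against 0 hr, 5, 3 and 5 at 8 hr against 4 hr and 0 in all comparisons of genotypes and interactions. The only call that the block changed was that of *Irf4* at 8 hr over both genotypes (limma adjusted p = 0.0191). *Irf4* had the fewest reads of the family, 10 to 49 per library, and how far counting error and the spread between replicates each set its intervals was not tested.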
